A study of Rattus norvegicus with 24 samples.

Results

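miR-148a-3p, miR-148b-3p and miR-152-3p are the 3 mature microRNAs of the rat miR-148 and miR-152 family. They were chosen by name, as the table entries rno-miR-148a-3p, rno-miR-148b-3p and rno-miR-152-3p, and are 3 of the 753 miRNA names counted. No cutoff on a measured value entered the choice, but earlier results of these data were known when it was made. The samples were serum of Wistar Kyoto rats, all male, whose small RNA was sequenced. Diet and exposure were crossed into 4 groups: fish oil diet with ozone (5 libraries), fish oil diet with filtered air (6), normal diet with ozone (6) and normal diet with filtered air (6). The fish oil diet was a custom feed with 6% fish oil by weight and the normal diet was the facility's rodent chow. Each was fed for 8 weeks from 4 weeks of age, and ozone rats then breathed 0.8 ppm (measured 0.8045 ± 0.0027 ppm, SEM) for 4 h on each of 2 successive days. Each library is 1 rat. The labels describe 24 rats; the second rat of the fish oil ozone group is not analysed here. An effect of the oil cannot be told apart from one of any other difference between the feeds, and a batch that followed the animal numbers, which run in blocks by group, cannot be told apart from the groups.

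A microRNA guides its protein complex to messenger RNAs that pair with its seed, bases 2 to 8 from the 5′ end, and lowers their translation and stability. Members of a seed family can therefore bind many of the same sites. In human and mouse liver cells miR-148a is known to repress the LDL receptor, which clears LDL cholesterol from blood, and ABCA1, the transporter that loads cholesterol onto HDL particles. All 3 members are known in human cells as repressors of DNMT1, a DNA methyltransferase. Serum holds no cells of its own, so the miRNAs in it come from blood cells and organs and travel in vesicles, protein complexes and lipoproteins. With serum, more releasing cells and more RNA released per cell cannot be told apart.

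The mature sequences are given because the results turn on how members that share a seed differ from each other. They are from RefSeq on the GRCr8 assembly, written 5′ to 3′, with the seed in capitals:
miR-148a-3p: uCAGUGCAcuacagaacuuug
miR-148b-3p: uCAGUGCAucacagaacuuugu
miR-152-3p: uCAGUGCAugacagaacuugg

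The seed CAGUGCA was the same in all 3 and in no other of the 693 mature rat miRNAs of that table, and it pairs with the site UGCACUG. Positions below are counted from 1 at the 5′ end over the 21 bases that all 3 have. miR-148a-3p and miR-148b-3p were identical at 19 of 21 bases and differed by C9U and U10C. miR-148b-3p and miR-152-3p were also identical at 19, with C10G and U20G. miR-148a-3p and miR-152-3p were identical at 18, with C9U, U10G and U20G. The differences lie just after the seed and next to the 3′ end, so a read with sequencing errors there could be placed on the wrong member. How the authors' counting treated mismatches is not given in the sources used here. Each member had 1 locus and whole-number counts in the deposited table.

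The loci are on 3 chromosomes. On rn5, in the positions of the deposited table, miR-148a-3p lies at chr4:145680972-145680993, miR-148b-3p at chr7:142692786-142692808 and miR-152-3p at chr10:84512284-84512305. The files do not say whether positions count from 0 or from 1. In the RefSeq annotation of GRCr8, Mir148b overlaps Copz1 and Mir152 overlaps Copz2, paralogous genes for the zeta subunit of the COPI vesicle coat. Mir148a overlaps no annotated gene and lies between the protein-coding genes Npvf and LOC102549423.

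The 23 libraries held 23276 to 94264 miRNA counts. Fish oil libraries held fewer, at 0.549 times the normal diet level by geometric mean (exact permutation test, two-sided, within exposures; adjusted p = 0.000548 over 6 library comparisons). A floor of 3 counts per library corresponded to 31.8 to 129 counts per 1e6 counts (CPM), before the scaling used for the levels below. It covers counting error only, since PCR copies are not independent molecules. After edgeR's low-count filter, 136 names were tested, with 99.3% of the counts, and all 3 members passed. Levels below are CPM under TMM scaling (trimmed mean of M values). Tests are edgeR's quasi-likelihood F test with Benjamini-Hochberg adjustment over the 136 names and a threshold of 0.05. The p-values set each difference against the spread between these rats, which edgeR estimates with help from all tested names. With 1 library per rat, that spread also holds serum handling and library preparation.

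The family was a minor part of serum miRNA. miR-148a-3p ranked 50 by mean share of the counts, at 0.223%, miR-148b-3p ranked 69, at 0.112%, and miR-152-3p ranked 91, at 0.0702%. The mean count per library was 114, 55.9 and 31.4 in that order, and the lowest count of any member in a library was 9. At these depths counting error alone gives a coefficient of variation of 9.37%, 13.4% and 17.8%. The variation between rats of a group beyond it was 26%, 28% and 33.5%, against a median of 34.7% for all tested names.

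On the fish oil diet miR-152-3p rose under TMM scaling, while miR-148a-3p and miR-148b-3p passed the test in neither direction. Under the total that the authors' RPM values imply, that call was lost, as given below. With both exposures averaged 36.8% of all tested names passed (50 of 136; 19.9% higher and 16.9% lower), so 1 of 3 members is close to the background share. The size of the miR-152-3p difference, 2.22-fold, and its place inside the family are what the following values describe.

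miR-152-3p had 1539.0, 1610.9, 1035.4, 855.7 and 637.4 CPM in the 5 fish oil ozone libraries. In fish oil air it had 398, 729 and 1359 CPM (lowest, median, highest, n = 6). On the normal diet these 3 values were 272, 395 and 610.4 CPM in ozone and 321, 458 and 577 CPM in air (n = 6 each). In 10 of 11 fish oil libraries miR-152-3p was above the highest normal diet library, and the exception was fish oil air replicate 2. The margin over 610.4 CPM was small in fish oil air replicates 5 and 6 (618.6 and 637.5 CPM) and fish oil ozone replicate 6 (637.4 CPM). On the authors' RPM scale, described below, the diets overlapped. Its highest values there were 21.6 in fish oil ozone, 9.67 in fish oil air, 13.7 in normal ozone and 8.67 in normal air. The group means were 1136 ± 426 CPM in fish oil ozone, 842 ± 374 in fish oil air, 411 ± 133 in normal ozone and 464 ± 98.2 in normal air (SD). Fish oil averaged over exposures was higher by 1.15 ± 0.22 on the log2 scale (SE; 95% interval 0.70 to 1.61; edgeR adjusted p = 0.000419). That p was the fourth smallest of the 136. Over both exposures the level was 975.5 ± 407 CPM on fish oil (n = 11) and 438 ± 115 CPM on the normal diet (n = 12).

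Within ozone the fish oil rats were higher in miR-152-3p by 1.44 ± 0.32 on the log2 scale (2.72-fold; 95% interval 0.79 to 2.10; edgeR adjusted p = 0.00243). All 5 fish oil libraries lay above the normal ozone mean and above the highest normal ozone library. In this comparison 22.8% of tested names passed (31 of 136). Within air the difference was 0.86 ± 0.31 (95% interval 0.23 to 1.49), and its adjusted p of 0.0942 by edgeR did not pass, with 5 of 6 fish oil libraries above the normal air mean. There 5.88% of names passed (8 of 136). Without fish oil air replicate 2 the air difference was 0.996 with an edgeR adjusted p of 0.0416. The air and ozone differences were not shown to differ from each other, as the interaction below shows.

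miR-148a-3p, the most abundant member, had 1877.6, 2958.9, 1800.7, 1050.2 and 1821.2 CPM in the fish oil ozone libraries. It had 1637, 2180.3 and 2623 CPM in fish oil air (lowest, median, highest). The normal diet groups had 1712, 2346 and 2989 CPM in ozone and 1710.1, 2402 and 2802 CPM in air. The groups overlapped: 3 fish oil libraries were below the lowest normal diet library and 0 were above the highest. Fish oil averaged over exposures gave -0.24 ± 0.17 on the log2 scale (SE; 95% interval -0.58 to 0.10; edgeR adjusted p = 0.263). Leaving out each library in turn moved that value between -0.37 and -0.15, and it passed in 0 of 23 such edgeR fits (lowest adjusted p = 0.0891). The same difference was -0.33 in ozone (adjusted p = 0.329) and -0.15 in air (adjusted p = 0.710) in the edgeR fit.

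miR-148b-3p had 831.1, 1117.8, 1215.5, 777.9 and 789.2 CPM in the fish oil ozone libraries. Fish oil air gave 831, 1093 and 1803 CPM, against 847, 1029 and 1737 CPM in normal ozone and 816, 1056 and 1246 CPM in normal air (lowest, median, highest). The 4 ranges overlapped, with the highest values in fish oil air and normal ozone. The difference for fish oil averaged over exposures was -0.05 ± 0.19 on the log2 scale (SE; 95% interval -0.43 to 0.33; edgeR adjusted p = 0.836), and it was 0.07 under total count scaling.

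Summed over its 3 members the family had 4418.4, 5900.8, 3892.0, 2435.1 and 3452.7 CPM in fish oil ozone. In the other groups the lowest, median and highest sums were 3303, 4046 and 4894 CPM in fish oil air, 2867, 3849.8 and 5331 CPM in normal ozone, and 3235, 4005 and 4422 CPM in normal air. Averaged over exposures the sum was higher on fish oil by 0.06 ± 0.15 on the log2 scale (SE; 95% interval -0.24 to 0.35; edgeR adjusted p = 0.784), but it was -0.83 with the implied read total described below. Under TMM, miR-152-3p rose while the family total showed no difference past the threshold.

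**Figure D1:**
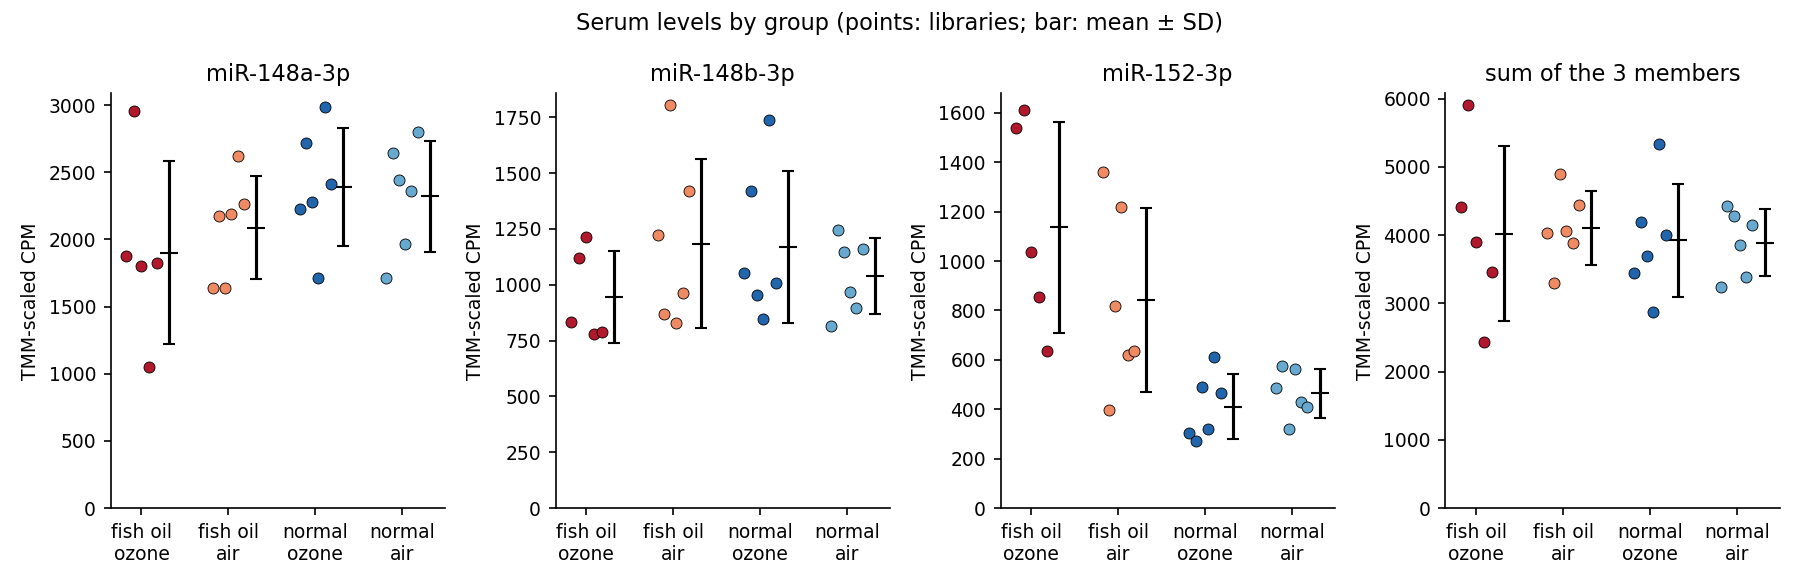
Serum levels of the 3 members and of their sum in TMM-scaled CPM (linear axes from 0, a separate scale per panel), 1 point per library, with the mean ± SD of each group beside its points. The miR-152-3p points of 10 of 11 fish oil libraries lie above every normal diet library, while the groups overlap for miR-148a-3p, miR-148b-3p and the sum.

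Ratios between members of 1 library need no scaling, because the library size cancels. They were taken as log2 of the ratio of counts, with 0.5 added to each count, and tested by exact permutation of libraries (two-sided, within exposure for an averaged contrast, adjusted over 18 ratio comparisons). The 3 members are counted from the same reads, so the 3 ratios are not independent of each other.

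miR-152-3p over miR-148a-3p was -0.28, -0.87, -0.79, -0.29 and -1.49 in the fish oil ozone libraries. It was -2.40, -1.40 and -0.27 in fish oil air, against -3.25, -2.36 and -2.21 in normal ozone and -2.90, -2.31 and -1.77 in normal air (lowest, median, highest). As geometric means that is 0.596 and 0.381 counts of miR-152-3p per count of miR-148a-3p in fish oil ozone and fish oil air, and 0.171 and 0.202 in normal ozone and normal air. The ratio was higher on fish oil by 1.36 on the log2 scale, or 2.57-fold (exact permutation p = 7.26e-05, adjusted p = 0.00131). Of the fish oil libraries 10 of 11 lay above the normal diet mean of their own exposure, and 8 of 11 above the highest normal diet library. In ozone the 5 fish oil libraries lay above all 6 normal ozone libraries, with a difference of 1.81 (exact permutation p = 0.00216, the smallest that 5 against 6 allow; adjusted p = 0.00974). In air the difference was 0.91 (exact permutation p = 0.0433, adjusted p = 0.156).

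The ratio of miR-152-3p over miR-148b-3p behaved alike. Its means were 0.20 ± 0.50 in fish oil ozone, -0.55 ± 0.73 in fish oil air, -1.50 ± 0.50 in normal ozone and -1.16 ± 0.42 in normal air (log2, SD). Fish oil averaged over exposures was higher by 1.16, or 2.23-fold (exact permutation p = 0.000269, adjusted p = 0.00242). All 11 fish oil libraries lay above the normal diet mean of their own exposure, and 8 of 11 lay above the highest normal diet library, so the diets overlapped. In ozone the difference was 1.70 (exact permutation adjusted p = 0.00974), and in air it was 0.61 (exact permutation adjusted p = 0.301). The ratio of miR-148b-3p over miR-148a-3p gave 0.20 for fish oil averaged over exposures (exact permutation p = 0.224, adjusted p = 0.417).

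Within the family, miR-152-3p made up 28.3 ± 6.30% of the counts in fish oil ozone, 20.2 ± 8.40% in fish oil air, 10.4 ± 2.60% in normal ozone and 12.4 ± 3.34% in normal air (SD). miR-148a-3p made up 49.3 ± 9.01% on fish oil and 60.4 ± 2.90% on the normal diet, and miR-148b-3p 26.8 ± 6.89% on fish oil and 28.2 ± 2.53% on the normal diet. All 12 normal diet libraries had the order miR-148a-3p, miR-148b-3p, miR-152-3p from high to low, and 5 of 11 fish oil libraries had it. miR-152-3p exceeded miR-148b-3p in 5 of 11 fish oil libraries and in 0 of 12 normal diet libraries. It exceeded miR-148a-3p in 0 libraries. The SDs of all 3 shares were wider among fish oil libraries, which also held fewer counts, and the part of depth in that was not tested.

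**Figure D2:**
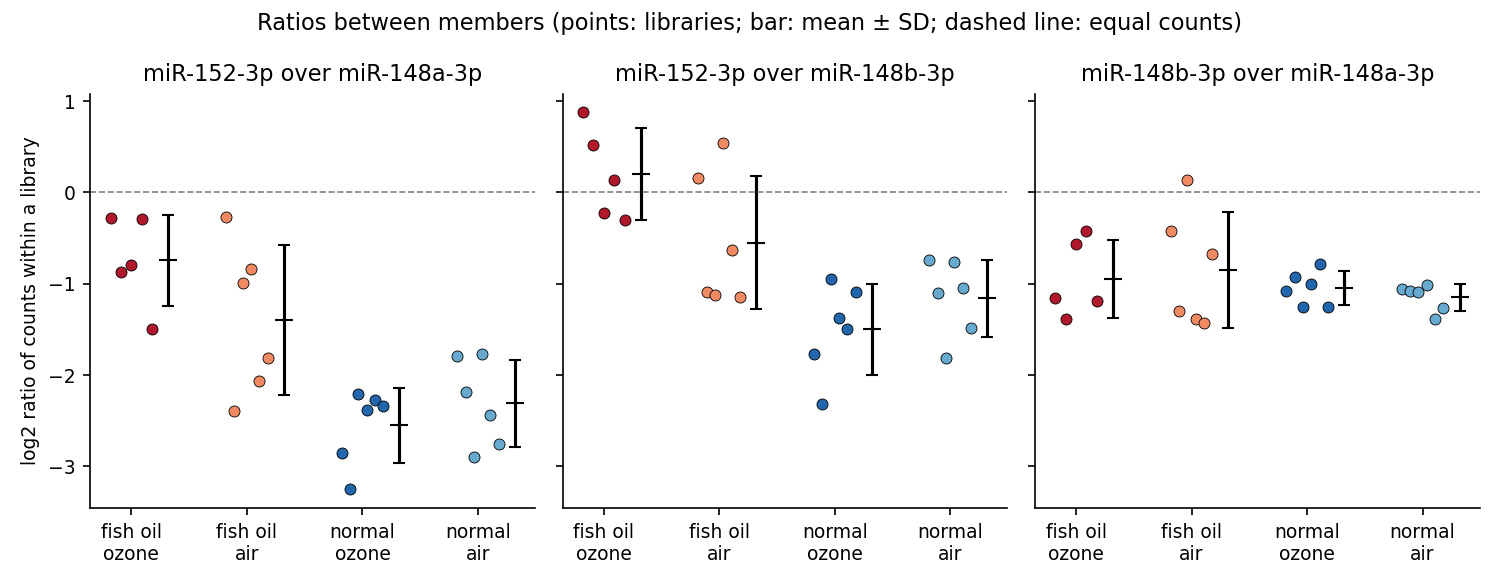
log2 ratios of counts between members within each library (points) with the mean ± SD of each group; the dashed line marks equal counts. Both ratios with miR-152-3p on top are higher in the fish oil groups, and in ozone their ranges do not overlap with normal ozone, while miR-148b-3p over miR-148a-3p overlaps in all 4 groups.

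No member passed the test for ozone. Averaged over diets the log2 difference of ozone over air was -0.05 for miR-148a-3p (95% interval -0.38 to 0.29), -0.08 for miR-148b-3p (-0.46 to 0.30) and 0.14 for miR-152-3p (-0.32 to 0.59), with edgeR adjusted p of 0.975, 0.975 and 0.915. Of all tested names 0.735% passed there (1 of 136). On the normal diet the ozone differences were 0.04, 0.16 and -0.15, with 0% of names passing by edgeR (4 at an unadjusted p under 0.05). On fish oil they were -0.13, -0.32 and 0.43, again with 0% passing (10 at an unadjusted p under 0.05). The family sum moved by -0.01 for ozone averaged over diets (edgeR adjusted p = 0.976).

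The interaction, which asks whether the fish oil difference in ozone was unlike that in air, was -0.17 ± 0.33 for miR-148a-3p, -0.48 ± 0.37 for miR-148b-3p and 0.58 ± 0.45 for miR-152-3p (log2, SE). None passed in edgeR (adjusted p = 0.947, 0.916 and 0.916), and 0% of all tested names did (6 at an unadjusted p under 0.05). For miR-152-3p the 95% interval ran from -0.32 to 1.49. In these 4 ozone and interaction comparisons DESeq2 called 1 name for ozone averaged over diets, 1 for ozone on the normal diet and 0 in the other two, and limma voom called 0 in each. None of the ratios between members passed for ozone (lowest exact permutation adjusted p = 0.260, for miR-152-3p over miR-148b-3p on fish oil, where the log2 difference was 0.75).

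The fish oil differences in level depended on the total the counts were divided by. The authors' RPM values use a total that no label gives; derived from the 2 tables together, this total was 2243916 to 7729944 reads per library, of which miRNA counts were 0.374% to 2.41%. That share was 0.509 times as large on fish oil (exact permutation adjusted p = 0.000548 over 6). On the authors' RPM scale miR-148a-3p averaged 17.4 ± 13.6 in fish oil ozone, 14.8 ± 4.75 in fish oil air, 39.0 ± 20.8 in normal ozone and 32.05 ± 20.3 in normal air. miR-148b-3p averaged 8.45 ± 5.43, 9.33 ± 6.21, 19.02 ± 11.4 and 14.5 ± 9.37 RPM in the same order of groups. miR-152-3p averaged 10.1 ± 7.23, 6.06 ± 2.97, 7.18 ± 4.88 and 5.76 ± 2.01 RPM.

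Which reads that total holds is not known. Relative to it, miR-148a-3p and miR-148b-3p were lower on fish oil and miR-152-3p did not pass. When edgeR took the implied read total as the library size, fish oil averaged over exposures gave -1.15 for miR-148a-3p (adjusted p = 0.00648), -0.91 for miR-148b-3p (adjusted p = 0.0371) and 0.29 for miR-152-3p (adjusted p = 0.496). The family sum was -0.83 there (edgeR adjusted p = 0.0347). The median of all tested names was shifted from 0.06 under TMM to -0.87, and 1 name passed higher and 70 lower, against 27 higher and 23 lower under TMM. Total count scaling gave a median of 0.17, with 29 higher and 13 lower, and there miR-148b-3p had the opposite sign (0.07, edgeR adjusted p = 0.840).

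Relative to the median of all tested names the members' values changed little. miR-152-3p was 0.96 to 1.15 above that median on the log2 scale over 11 alternative scalings, models and filters. miR-148a-3p was at -0.33 to -0.20 and miR-148b-3p at -0.12 to -0.04 from it in the same 11. A change of library size moves all names by nearly the same amount. For the scalings this closeness is therefore largely built in and tests nothing. The ratios between members need no scaling at all, but they set the members against each other and not against that median.

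**Figure D3:**
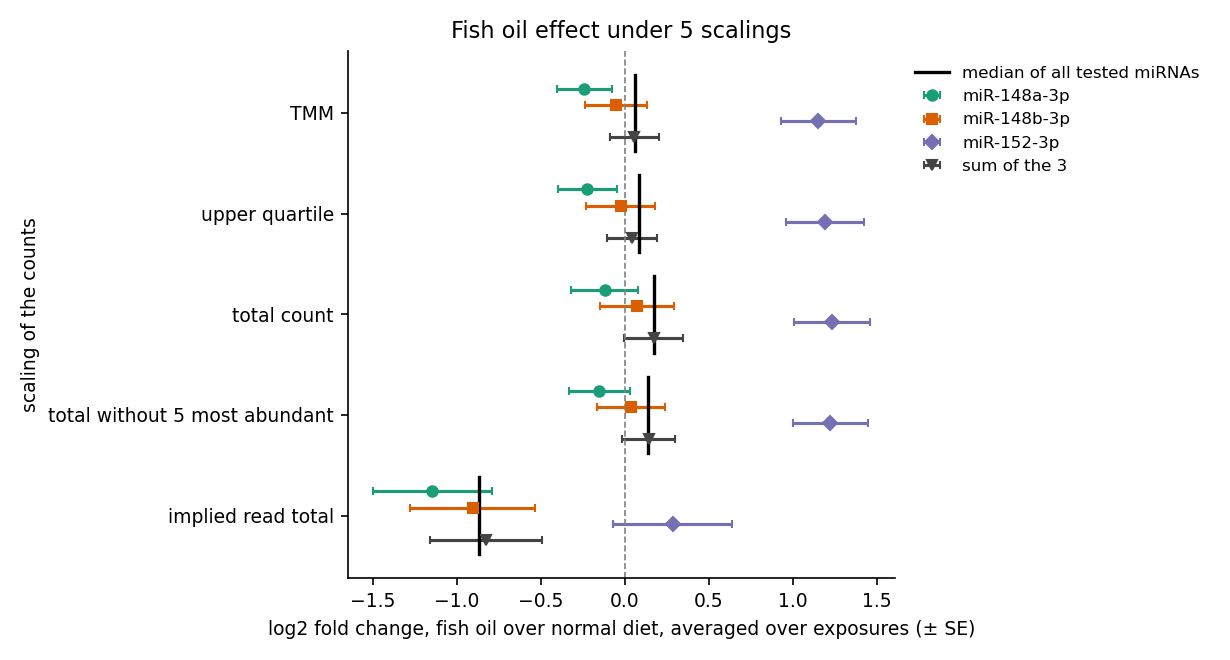
log2 fold change of fish oil over normal diet, averaged over exposures, for the 3 members and their sum (± SE) under 5 scalings of the counts; black bars mark the median of all tested miRNAs under each. The implied read total moves the members and the median to the left together, from 0.06 to -0.87 for the median, while miR-152-3p stays to the right of it.

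Other miRNAs known for acting on cholesterol and lipoproteins were read from a list of 20 names, of which 15 passed the low-count filter. For fish oil averaged over exposures 3 rose, 5 fell and 7 did not pass (edgeR, adjusted over all 136). Over all 136 names 19.9% rose and 16.9% fell in this comparison. The list's median was -0.22 on the log2 scale, against 0.06 for all tested names. miR-96-5p, miR-34a-5p, miR-378a-3p, miR-370-3p and miR-301b-3p were below the filter. For ozone averaged over diets 0 of 15 passed by edgeR. These directions, and those of the marker lists below, are under TMM scaling; with the implied read total 1 of the 136 names passed higher and 70 passed lower.

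Among those that fell was miR-128-3p, known in human and mouse cells to repress ABCA1 and the LDL receptor as miR-148a does. It averaged 13943 ± 7424 CPM in fish oil ozone, 19308 ± 6301 in fish oil air, 36099.6 ± 4230.2 in normal ozone and 38339.6 ± 3745 in normal air (SD), a log2 difference of -1.18 ± 0.19 (SE; edgeR adjusted p = 5.60e-05). Its range in both fish oil groups lay below that in both normal diet groups. miR-130b-3p fell by 0.78 (edgeR adjusted p = 0.0150), miR-185-5p fell by 0.80 (adjusted p = 0.0300), miR-223-3p, a neutrophil miRNA also carried on HDL, fell by 0.80 (adjusted p = 0.0165), and miR-26a-5p fell by 0.37 (adjusted p = 0.0270). miR-130b-3p and miR-130a-3p are also near relatives by seed, since their seeds hold the last 6 bases of CAGUGCA. miR-130a-3p was at -0.03 (edgeR adjusted p = 0.876).

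Of the list's names that rose, miR-10b-5p was higher by 1.41 (edgeR adjusted p = 0.00175), miR-144-3p, a red cell miRNA, by 0.98 (adjusted p = 0.0322) and miR-27b-3p by 0.61 (adjusted p = 0.00309). miR-27b-3p, known to repress the LDL receptor in liver cells of human origin, averaged 8475 ± 2429 CPM in fish oil ozone, 7545 ± 1224 in fish oil air, 4832 ± 1806 in normal ozone and 5668 ± 661 in normal air (SD). miR-122-5p, the main hepatocyte miRNA, spread widely within groups. It averaged 20689 ± 17943 CPM in fish oil ozone, 8304 ± 5181 in fish oil air, 20488 ± 11240.4 in normal ozone and 34600.5 ± 27434 in normal air (SD). Its averaged difference of -1.02 ± 0.43 (SE) did not pass (edgeR adjusted p = 0.0665). In air alone it fell by 2.06 (edgeR adjusted p = 0.0472), and in ozone it was at 0.01 (edgeR adjusted p = 0.984). miR-33-5p, encoded within the gene of the sterol regulator Srebf2, was at -0.02 (edgeR adjusted p = 0.954).

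**Figure D4:**
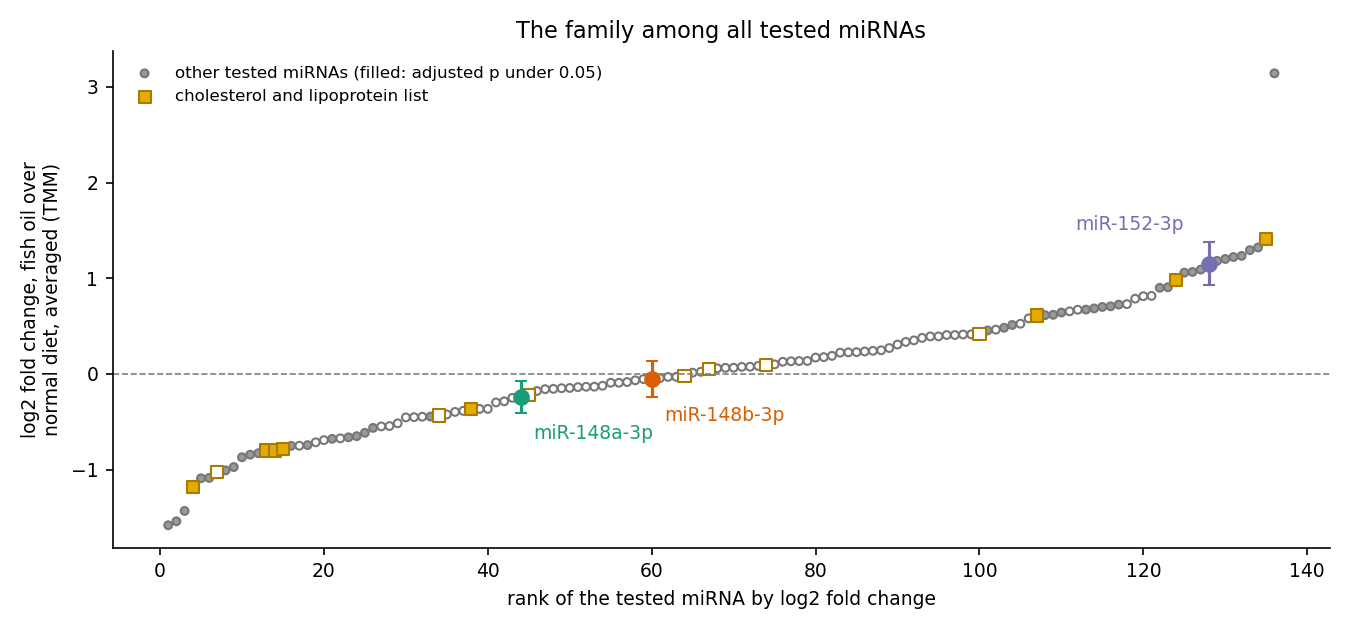
All 136 tested miRNAs in order of their log2 fold change, fish oil over normal diet averaged over exposures (filled grey points and filled squares passed an adjusted p of 0.05), with the 3 members in colour (± SE) and the cholesterol and lipoprotein list as squares. miR-152-3p, at 1.15, is among the highest and passed, while miR-148a-3p, at -0.24, and miR-148b-3p, at -0.05, lie in the middle of the order and did not pass.

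Markers of other sources moved with the diet too, in a comparison where 19.9% of all 136 names rose and 16.9% fell. Of the smooth muscle and fibroblast list, 3 of 3 tested names rose for fish oil averaged over exposures in edgeR: miR-143-3p by 1.07 (adjusted p = 0.000913), miR-145-5p by 1.22 (adjusted p = 0.00585) and miR-199a-3p by 1.20 (adjusted p = 0.000112). miR-214-3p was below the filter. The list's summed share of counts had a median of 28.9% in fish oil ozone (range 21.4 to 35.2%), 27.2% in fish oil air (15.96 to 37.0%), 11.3% in normal ozone (9.13 to 16.8%) and 11.8% in normal air (8.61 to 22.8%). Most of that share was miR-143-3p, with a mean count of 8565 per library, against 345 for miR-199a-3p and 19.1 for miR-145-5p. The list's markers were at 0 in no group. The part of these cells in the rise of miR-152-3p was not tested.

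The counts that follow stand against the same 19.9% of all 136 names that rose and 16.9% that fell. Both endothelial names also rose, miR-126a-3p by 1.06 (edgeR adjusted p = 0.0136) and miR-126a-5p by 0.64 (edgeR adjusted p = 0.0150). Their summed share had medians of 2.02% and 1.99% in fish oil ozone and fish oil air, and 1.16% and 0.918% in normal ozone and normal air. Most of it was miR-126a-5p, with a mean count of 737 against 11.3 for miR-126a-3p. Of the liver list, 1 of 3 fell (miR-192-5p, by 0.62, edgeR adjusted p = 0.0118). Its median summed shares were 7.62%, 5.76%, 9.03% and 11.7% in fish oil ozone, fish oil air, normal ozone and normal air. In air alone 2 of the 3 fell and in ozone 0, where 5.88% and 22.8% of all names passed. miR-122-5p, miR-192-5p and miR-194-5p were at -2.06, -1.08 and -1.05 in air and 0.01, -0.15 and 0.28 in ozone. Their interactions did not pass (edgeR adjusted p = 0.531, 0.531 and 0.916). Red cell names, which can be released when blood cells burst during collection, made up 0.959 to 3.32% of counts, and 2 of 4 tested rose. Most of that share was miR-16-5p (mean count 841), which was at 0.06 (edgeR adjusted p = 0.778). miR-144-3p and miR-144-5p rose, by 0.98 and 1.32, on mean counts of 11.3 and 10.3. miR-451-5p was at 0.58 (edgeR adjusted p = 0.208), and miR-486 was not among the names counted. Of the neutrophil and other myeloid list, miR-223-3p fell, as given above, and miR-142-5p was at 0.08 (edgeR adjusted p = 0.805). The log2 ratio of miR-451-5p to miR-23a-3p, an index of such release, was higher on fish oil by 0.43 (exact permutation adjusted p = 0.338). With that index as a covariate the edgeR difference of miR-152-3p was 1.14.

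Likeness over libraries was read as Pearson's r of log2 CPM over all 23, between each member and the other 135 tested names. It is a description: all values share the same libraries, diets and depths. The 5 names most like miR-152-3p were miR-199a-3p (r = 0.86), miR-497-5p (0.86), miR-29c-3p (0.76), miR-30e-5p (0.73) and miR-30a-5p (0.73). With the mean of each group taken off, these were 0.69, 0.72, 0.54, 0.42 and 0.45. All 5 rose on fish oil averaged over exposures in edgeR, by 1.20, 1.29, 1.09, 0.71 and 0.62 in that order. Over all 136 names 19.9% rose. The 5 were picked with the group means left in, which favours names that share the diet difference, so their rise is no separate result.

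The names most like the other members were different from those. For miR-148a-3p they were miR-340-5p (r = 0.70), miR-339-5p (0.65), miR-20a-5p (0.55), miR-181d-5p (0.53) and miR-301a-3p (0.51). For miR-148b-3p they were miR-19b-3p (0.70), miR-19a-3p (0.61), miR-872-5p (0.58), miR-301a-3p (0.57) and miR-340-5p (0.55), of which miR-301a-3p and miR-340-5p stand in both lists. The members were not among each other's 5. Between miR-148a-3p and miR-148b-3p r was 0.38, between miR-148a-3p and miR-152-3p -0.26, and between miR-148b-3p and miR-152-3p -0.01; with group means off they were 0.33, 0.11 and 0.21.

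The opposite arms of the 3 precursors show which strand reached serum. They have seeds of their own, printed for the 2 that RefSeq lists:
miR-148a-5p: aAAGUUCUgagacacucugacuc
miR-152-5p: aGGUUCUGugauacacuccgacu

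In each precursor the 3p arm held most counts. miR-148a-5p had 216 counts in all, or 7.61% of its precursor's, and was seen in all 23 libraries. miR-148b-5p had 17 counts (1.30%) and was at 0 in 11 of 23 libraries, and miR-152-5p had 18 (2.43%) and was at 0 in 14 of 23. By group the 5p share of miR-148a was 8.62% in fish oil ozone, 6.12% in fish oil air, 8.18% in normal ozone and 7.51% in normal air. miR-148a-5p was the only 5p arm to pass the low-count filter, and its fish oil difference averaged over exposures was -0.45 ± 0.35 (log2, SE; edgeR adjusted p = 0.341). miR-152-5p had 3, 1, 3 and 11 counts in fish oil ozone, fish oil air, normal ozone and normal air, too few to show whether it moved with its 3p arm.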

How the data were processed

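Per the labels' protocols, RNA from 100 µl of serum was taken with a biofluids kit, 10 ng entered a small RNA library kit, and sequencing was single-end with 50 cycles. The tools named per the submitters' processing notes are Bowtie 1.0.0, Partek and bcl2fastq, and the build is rn5. No source used here gives the annotation, the filters or the treatment of multiply matching reads. The authors deposited a table of expected counts per mature miRNA locus (832 loci, 50 with fractions). The authors' second deposited table holds RPM, which equal the counts per name over 1 total per library plus an offset of 0.0001, within 0.0205 reads. Both tables hold 23 libraries, and no column was left unmapped. Replicates differed by more than sampling noise.

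Loci of a name were summed and rounded, which left 440 names with a count. Counts were filtered (filterByExpr by group, minimum count 10, minimum total 15), scaled by TMM and fitted in edgeR 4.0.16 (R 4.3.3; robust quasi-likelihood, 1 mean per group, 23 libraries, 7 contrasts). A family sum replaced its members in a separate fit. Each edgeR SE was worked out as the size of the log2 difference over the square root of its F statistic, which is an approximation. The 95% intervals use that SE and the moderated degrees of freedom of the same fit. log2 CPM for likeness used a prior count of 2. Ratio tests were run in Python 3.11.15 with numpy 2.4.6. The scripts were tested on simulated data. Alternatives were DESeq2 1.42.0, limma 3.58.1 (voom; log2 RPM with a pseudocount of 1 or 0.1), ratio pseudocounts of 0.1 and 2, other scalings, no filter, the main locus only, the compared groups alone, the red cell index as covariate, and leaving out each library. Libraries were joined to groups by the animal number in title and column name. Names in the text are the members, their other arms, the 5 most alike per member and the marker lists. From the lipid list they are the names that passed, miR-122-5p, miR-128-3p and the names below the filter. Outside these lists, miR-130a-3p is named as a near relative by seed and miR-23a-3p as part of the red cell index. miR-33-5p was added after its value was seen. Members and lists were chosen with earlier results of these data known.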

Additional observations from a re-analysis of the deposited data

How the results depend on the processing

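Of 1280 alternative values on 46 results, 1259 kept their direction and side of the threshold, or changed sign with neither value past it (108 values of 20 results, the largest 0.94 in size). For fish oil averaged over exposures, the implied read total, log2(RPM + 1) and log2(RPM + 0.1) gave -1.15, -1.07 and -1.12 for miR-148a-3p and -0.91, -0.84 and -0.92 for miR-148b-3p, all past the threshold. They gave 0.29, 0.22 and 0.24 for miR-152-3p, which no longer passed, and -0.83, -0.79 and -0.81 for the family sum, which reversed and passed. For fish oil in ozone, miR-148a-3p passed on both RPM scales (-1.23 and -1.30), and miR-152-3p passed under none of the 3 (0.50, 0.44 and 0.51). These settings shift the median of all names; further causes were not tested. For fish oil in air, miR-152-3p passed under DESeq2 (0.86), total count scaling (1.04), library sizes without the 5 most abundant names (0.97) and without fish oil air replicate 2; over 23 single omissions it ran from 0.646 to 0.996 and passed in 1. For fish oil averaged it ran from 1.04 to 1.22 and in ozone from 1.27 to 1.61, passing in 23 of 23 each. Of those 23 omissions, 12 took a library from the groups compared in air and 11 from those compared in ozone. For these 2 comparisons the other omissions could act only through the filter, the scaling and the shared spread. Both ratios with miR-152-3p on top passed without any 1 library, for fish oil averaged and in ozone. No paired analysis was possible because the labels' animal numbers pair no rats across groups. Depth limits miR-152-3p most, with 9 to 52 counts per library.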
